A study of Mus musculus with 10 samples.

Results

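The aminoacyl-tRNA synthetases were followed at the transcript level in male mouse embryonic stem cells (mESCs) kept in culture by 2 methods. The set was fixed by gene name and holds 37 of the 25965 features of the expression table, 21 cytosolic enzymes and 16 mitochondrial ones. Names ending in 2 mark the mitochondrial enzymes, with the exception of Tarsl2, a cytosolic threonyl-tRNA synthetase paralogue, which was counted as cytosolic. All cells were male C57/Bl6 mESCs in 2i medium, which holds mESCs in the naive state, and came from 2 lines that had been derived and grown under Keniry2022 conditions before the experiment. The 5 groups were the starting cells at passage 0 (p0), cells after 10 or 20 passages (p10, p20) under Keniry2022 conditions (in suspension, passaged daily; labelled New and Off), and cells after 10 or 20 passages under Mulas2019 conditions (attached to gelatin, passaged less often; labelled Old and On). Each group had 2 libraries, 1 from each line, so the 4 libraries of a method are 2 lines at 2 passages rather than 4 derivations. The p20 Keniry2022 and p10 Mulas2019 cells had spent equal days in culture.

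Aminoacyl-tRNA synthetases join each amino acid to its tRNA and so set which amino acid a codon delivers. The cytosol and the mitochondrion use separate enzymes for most amino acids, all of them encoded in the nucleus, while Gars (glycine) and Kars (lysine) each give both a cytosolic and a mitochondrial form. Several cytosolic enzymes sit together in the multi-synthetase complex, held by the scaffold proteins Aimp1, Aimp2 and Eef1e1. Many cytosolic synthetase genes are targets of ATF4, the transcription factor of the amino acid response, which binds C/EBP-ATF response elements in promoters when amino acids are short or eIF2 alpha is phosphorylated. The mitochondrial enzymes supply the translation of the few proteins encoded in mitochondrial DNA.

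Library totals lay between 24053996 reads (p0 replicate 1) and 30236823 reads (p10 Mulas2019 replicate 2), and 86.0% to 88.8% of them fell in features. Between 177804 and 259383 reads per library fell in the 37 synthetases, 0.843% to 1.016% of the reads in features. The fewest reads were those of Wars2, with 172 to 251 per library, and the highest count in a single library was that of Lars2, which ran from 9469 to 32318 reads. All 7 mESC markers were above 0 log2 RPKM, with a summed level of 10.41 to 10.55 in the Keniry2022 libraries and 10.29 to 10.32 in the Mulas2019 libraries. The markers of fibroblasts (0 of 4) and mesoderm (0 of 3) were below 0 in every library. Of the trophoblast markers 2 of 4 were above 0, Tfap2c and Eomes, with summed levels of 4.48 to 4.73 under Keniry2022 and 4.77 to 5.10 under Mulas2019, while the defining markers Cdx2 and Elf5 stayed below 0 throughout. Of the neural markers 1 of 3 was above 0 (Nes, summed level 2.16 to 2.44 under Keniry2022 and 2.46 to 2.95 under Mulas2019), and of the primitive endoderm markers 1 of 4 (Gata4, highest value 0.02). Whether these markers have a part in the differences between the methods was not tested.

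The study states that a line had lost its Y chromosome while it was being derived, ahead of the experiment. The summed reads of 4 Y-linked genes (Ddx3y, Eif2s3y, Kdm5d and Uty) were 13 to 132 in 1 library of each group and 4578 to 8140 in the other. The low library was replicate 1 in every group except p20 Keniry2022, where replicate 2 had 48 reads and replicate 1 had 6659. The libraries of p20 Keniry2022 therefore carry the opposite numbers to the rest, and each method held 2 libraries of either kind. A block by the replicate numbers as given, used below, thus pairs these 2 libraries with the other line. The p0 libraries stood further apart than other pairs for some members, with 5 of the 37 differing by over 0.5 log2 RPKM between them. For Eprs, the enzyme of glutamate and proline, they read 6.73 and 7.30, and for Yars2 4.75 and 4.06.

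The promoter windows of the cytosolic enzymes that carry the C/EBP-ATF response element are shown first, since the results divide the cytosolic enzymes by membership of the ATF4 list. RefSeq windows of 300 bases around the transcription start (GRCm38.p6) were found for 28 of the 37 members, 14 cytosolic and 14 mitochondrial. The motif TGATGNAA, searched on both strands with N as any base, was present in 5 of the 14 cytosolic windows, 0 of the 14 mitochondrial ones and 1304 of all 32851 windows (3.97%). All 5 were on the list of 13 cytosolic ATF4 targets (of which 8 had a window), and none of the 6 windows of other cytosolic enzymes held a match. Capitals mark the matches, which are printed as the reverse complement where they lie on the opposite strand. The windows are Aars chr8:111033592-111033891 (+), Gars chr6:55037751-55038050 (+), Iars chr13:49681880-49682179 (+), Tars chr15:11399609-11399908 (-) and Yars chr4:129189653-129189952 (+).
Aars: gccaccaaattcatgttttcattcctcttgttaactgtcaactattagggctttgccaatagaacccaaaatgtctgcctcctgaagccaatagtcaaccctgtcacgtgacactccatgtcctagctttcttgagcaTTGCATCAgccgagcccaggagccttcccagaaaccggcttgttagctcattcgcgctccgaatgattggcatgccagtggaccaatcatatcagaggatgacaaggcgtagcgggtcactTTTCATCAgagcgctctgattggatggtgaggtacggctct
Gars: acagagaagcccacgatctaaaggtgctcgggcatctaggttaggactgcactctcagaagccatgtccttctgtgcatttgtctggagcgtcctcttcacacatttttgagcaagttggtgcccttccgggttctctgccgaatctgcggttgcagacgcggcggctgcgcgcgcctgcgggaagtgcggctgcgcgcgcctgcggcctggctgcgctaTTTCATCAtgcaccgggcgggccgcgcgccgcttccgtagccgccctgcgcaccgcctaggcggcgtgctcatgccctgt
Iars: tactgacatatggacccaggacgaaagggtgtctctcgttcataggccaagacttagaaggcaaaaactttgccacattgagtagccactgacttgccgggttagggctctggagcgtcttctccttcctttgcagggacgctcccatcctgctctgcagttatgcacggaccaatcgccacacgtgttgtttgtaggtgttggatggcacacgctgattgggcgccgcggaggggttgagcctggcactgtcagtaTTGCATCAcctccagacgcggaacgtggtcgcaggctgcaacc
Tars: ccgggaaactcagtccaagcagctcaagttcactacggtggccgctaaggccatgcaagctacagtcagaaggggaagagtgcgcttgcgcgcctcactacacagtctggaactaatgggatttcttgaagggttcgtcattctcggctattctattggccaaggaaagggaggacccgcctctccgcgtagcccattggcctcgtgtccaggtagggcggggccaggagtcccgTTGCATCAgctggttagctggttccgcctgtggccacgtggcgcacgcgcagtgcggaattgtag
Yars: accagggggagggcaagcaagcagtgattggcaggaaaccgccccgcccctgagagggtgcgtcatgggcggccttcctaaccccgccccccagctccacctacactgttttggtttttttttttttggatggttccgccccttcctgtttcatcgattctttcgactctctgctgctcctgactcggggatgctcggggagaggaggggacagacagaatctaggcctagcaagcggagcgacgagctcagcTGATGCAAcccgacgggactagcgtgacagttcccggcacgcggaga
Alanyl-tRNA synthetase, Aars, held a match at -112 and another at 9 (left end of the match, counted from the first transcribed base), and the single matches lay at -30 in Gars (glycine), 7 in Iars (isoleucine), -15 in Tars (threonine) and 3 in Yars (tyrosine). The windows of Eprs, Mars and Sars, also on the ATF4 list, held none. A match is a run of letters and no measurement of binding.

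Levels per exon length were higher for the cytosolic class. Mean log2 RPKM over the 10 libraries ran from 2.18 (Tarsl2) to 7.83 (Gars) among the cytosolic enzymes, with a median of 6.18, and from 0.32 (Wars2) to 7.30 (Lars2) among the mitochondrial enzymes, with a median of 3.42. Without Lars2 the highest mitochondrial level was 4.21, for Rars2. Among 16 amino acids with a separate enzyme for either compartment (Eprs, which charges both glutamate and proline tRNA, was set against Ears2 and against Pars2), the cytosolic transcript was the more abundant in 15. The gap was widest for asparagine, where Nars stood 5.81 above Nars2 on the log2 scale, and leucine was the exception, with Lars 0.59 below Lars2 (a gap of -0.59). The Lars2 level is set beside that of Gm15564, a feature with a shared stretch of sequence, below.

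To ask whether the culture method altered synthetase transcripts, the 4 Keniry2022 and the 4 Mulas2019 libraries were compared with passages pooled. Of the 37 members, 24 passed the test (limma, adjusted p under 0.05 over all features), 14 higher and 10 lower under Keniry2022. This share has to be read against the whole table, since 51.5% of the 11654 features tested passed in this comparison (25.9% higher and 25.5% lower, median log2 difference -0.003). The cytosolic class divided, with 9 lower, 6 higher and 6 that did not pass (median -0.10), whereas the mitochondrial class had 8 higher, 1 lower and 7 that did not pass (median 0.13). All 13 cytosolic enzymes of the ATF4 list had a negative difference, 9 of them past the test (median -0.23). All 8 other cytosolic enzymes had a positive one, 6 of them past the test (median 0.18), although under quantile normalisation Kars moved to 0.00 and 2 of the 8 passed. The ATF4 list was chosen with earlier results of these data known, so this division is a description and was not tested. In bulk RNA, a change in the number of cells that carry a transcript and a change in its amount per cell cannot be told apart. Quantile normalisation changed the split of calls among the 37 members to 9 higher and 14 lower.

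**Figure D1:**
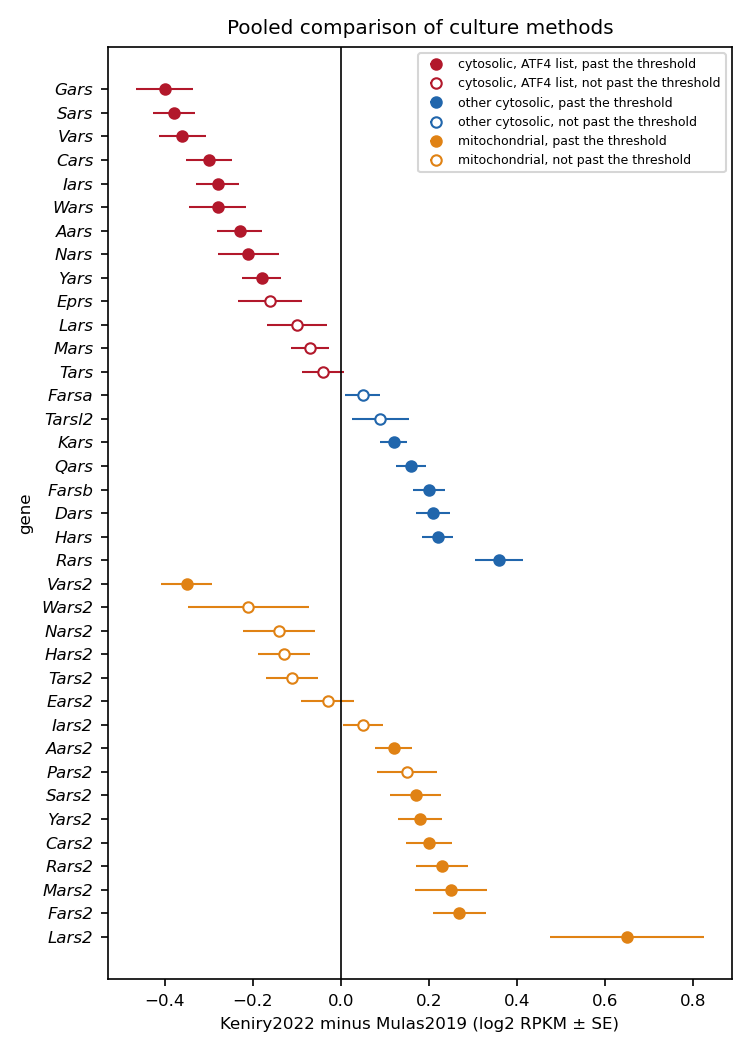
Difference between the methods for each of the 37 synthetases (x axis, Keniry2022 minus Mulas2019 in log2 RPKM, 4 libraries each, bars 1 SE of the limma fit), in 3 sets by colour and filled where the adjusted p was under 0.05. All 13 enzymes of the ATF4 list lie left of 0, all 8 other cytosolic enzymes lie right of it, and Lars2 lies furthest right at 0.65.

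The enzymes of the ATF4 list that differed most were those for glycine, serine and valine. Values are given per library in the order p10 replicates 1 and 2, then p20 replicates 1 and 2. Gars (chr6:55038001-55079504, mm10) read 7.65 and 7.56 log2 RPKM at p0, 7.72, 7.65, 7.64 and 7.73 under Keniry2022, and 8.24, 8.17, 7.98 and 7.93 under Mulas2019. The methods did not overlap, and Gars was 31.5% higher under Mulas2019 (difference -0.40 ± 0.0649 SE, adjusted p = 0.000797). Seryl-tRNA synthetase, Sars (chr3:108424865-108445209), read 6.51 and 6.29 at p0, 6.41, 6.36, 6.56 and 6.45 under Keniry2022, and 6.87, 6.83, 6.74 and 6.85 under Mulas2019. Again the Mulas2019 libraries were all above the Keniry2022 libraries, by 30.0% on average (-0.38 ± 0.0476, adjusted p = 0.000201). Valyl-tRNA synthetase, Vars (chr17:35000987-35016322), read 5.56 and 5.66 at p0, 5.86, 5.86, 5.80 and 5.86 under Keniry2022, and 6.29, 6.31, 6.16 and 6.07 under Mulas2019. Its Keniry2022 libraries lay within a narrow range and below every Mulas2019 library, with a difference of -0.36 ± 0.0529 (adjusted p = 0.000434) that shrank to -0.16 (0.0133) after correction for exon length and GC content.

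The other 6 enzymes of this list that passed were those for cysteine (Cars, -0.30, adjusted p = 0.00105), isoleucine (Iars, -0.28, 0.00101), tryptophan (Wars, -0.28, 0.00522), alanine (Aars, -0.23, 0.00475), asparagine (Nars, -0.21, 0.0272) and tyrosine (Yars, -0.18, 0.00765). Of the 13, 8 had no Keniry2022 library above any Mulas2019 library, against 23.4% of all features in this direction (46.5% in either), and Nars was the member that passed the test with overlapping libraries. The call of Nars was lost in 6 of 20 alternatives, among them no filter on low values (adjusted p = 0.0775) and the omission of p10 Keniry2022 replicate 2 (0.0623), of either p20 Keniry2022 library (0.0618 each) or of p10 Mulas2019 replicate 2 (0.0629). The bifunctional Eprs read 6.73 and 7.30 at p0, 7.20, 7.16, 7.22 and 7.23 under Keniry2022, and 7.58, 7.41, 7.24 and 7.21 under Mulas2019. Its Mulas2019 libraries were high at p10, while at p20 1 was just above the Keniry2022 range and the other within it, and the pooled difference of -0.16 ± 0.0725 did not pass (adjusted p = 0.09). Leucyl- (Lars, -0.10), methionyl- (Mars, -0.07) and threonyl-tRNA synthetase (Tars, -0.04) did not pass either. Of the 5 genes with the response element shown above, Aars, Gars, Iars and Yars were lower and Tars did not pass, and among the 3 windows of the list without it Sars was lower while Eprs and Mars did not pass. Cars, Lars, Nars, Vars and Wars had no window, and all of these but Lars were lower. Whether the element goes with the difference was not tested. Correction for exon length and GC content ended the calls of Aars (-0.03, adjusted p = 0.675) and Yars (-0.07, 0.198).

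**Figure D2:**
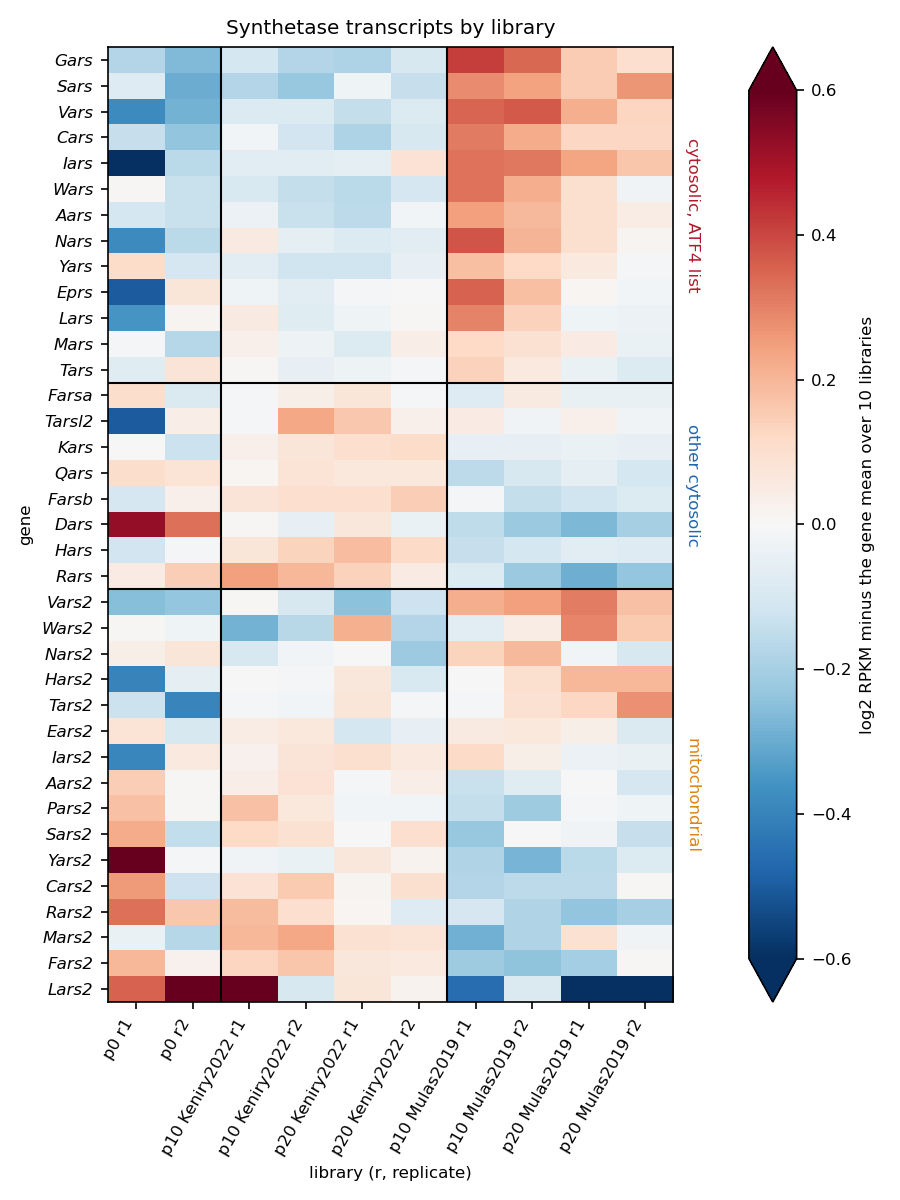
Level of each synthetase (rows) in each library (columns) as log2 RPKM minus the mean of the gene over the 10 libraries, with the colour scale ending at 0.6 in either direction. Most rows of the ATF4 list are highest in the 2 p10 Mulas2019 libraries, where the median of the list is 0.32 and 0.20 above the gene means, and Lars2 has the widest range of all rows.

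Arginyl-tRNA synthetase, Rars (chr11:35808381-35834506), had the largest positive difference of the cytosolic class. It read 5.79 and 5.89 at p0, 5.99, 5.94, 5.88 and 5.79 under Keniry2022, and 5.66, 5.52, 5.45 and 5.51 under Mulas2019. Every Keniry2022 library was above every Mulas2019 library, by 28.5% on average (0.36 ± 0.0554, adjusted p = 0.000536). Histidyl-tRNA synthetase, Hars, whose exons overlap those of Hars2 on the opposite strand over 8.0% of their length, read 5.61 and 5.72 at p0, 5.80, 5.86, 5.91 and 5.84 under Keniry2022, and 5.59, 5.62, 5.66 and 5.65 under Mulas2019. The Mulas2019 libraries were close to the p0 libraries and the Keniry2022 libraries were above both (0.22 ± 0.035, adjusted p = 0.000668). Aspartyl-tRNA synthetase, Dars, read 7.60 and 7.40 at p0, 7.08, 7.02, 7.14 and 7.03 under Keniry2022, and 6.92, 6.85, 6.80 and 6.87 under Mulas2019. All 8 later libraries were below both p0 libraries, and the methods did not overlap (0.21 ± 0.0386, adjusted p = 0.00157). Quantile normalisation and correction for length and GC content each brought the Dars difference to 0.06 and ended the call (adjusted p = 0.168 and 0.184), and quantile normalisation brought that of Hars to 0.11 (0.0301).

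Farsb, the beta subunit of the phenylalanine enzyme, read 6.08 and 6.21 at p0, 6.26, 6.28, 6.28 and 6.33 under Keniry2022, and 6.17, 6.04, 6.06 and 6.10 under Mulas2019 (0.20, adjusted p = 0.00153). The alpha subunit Farsa differed by 0.05 and did not pass (adjusted p = 0.288). Glutaminyl-tRNA synthetase, Qars, read 5.45 and 5.43 at p0, 5.36, 5.43, 5.41 and 5.41 under Keniry2022, and 5.19, 5.25, 5.29 and 5.24 under Mulas2019 (0.16, adjusted p = 0.00352). In Farsb, Qars and Kars too the methods did not overlap, so 6 of the 8 enzymes outside the ATF4 list were higher in every Keniry2022 library, against 23.1% of all features. Kars, which serves both compartments, read 6.83 and 6.70 at p0, 6.86, 6.90, 6.93 and 6.94 under Keniry2022, and 6.78, 6.78, 6.79 and 6.78 under Mulas2019. Its difference was small and rested on a narrow spread (0.12 ± 0.0302, adjusted p = 0.00682). Kars no longer passed after correction for length and GC content (0.07, 0.0767), and under quantile normalisation neither did Kars (0.00, 0.942), Farsb (0.06, 0.168) or Qars (0.07, 0.122). The correction for length and GC content moved Farsb to 0.10 (0.0468) and Qars to 0.27 (0.00016). Tarsl2 was low and read 1.68 and 2.22 at p0, 2.17, 2.41, 2.34 and 2.21 under Keniry2022, and 2.23, 2.16, 2.21 and 2.16 under Mulas2019. These ranges overlapped, and the difference of 0.09 did not pass (adjusted p = 0.279).

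Of the 8 enzymes of the multi-synthetase complex, 4 were higher under Keniry2022 (Dars, Kars, Qars and Rars), 1 was lower (Iars), and Eprs, Lars and Mars did not pass. The number that passed is close to the share of all features (51.5%). The split of 4 higher and 1 lower is less even than the 25.9% and 25.5% of all features, and was not tested on these 8 genes. Counted by sign alone, 4 differences were positive and 4 negative, with a median of 0.03. The 4 positive ones are those outside the ATF4 list, so the split repeats the division by that list. The 3 scaffold genes were all higher, Aimp1 by 0.42 (6.87 ± 0.0951 SD under Keniry2022 and 6.45 ± 0.144 under Mulas2019, n = 4 each, limma adjusted p = 0.000921), Eef1e1 by 0.25 and Aimp2 by 0.13. At p0 Aimp1 stood at 7.36 and 6.84 and Eef1e1 at 7.87 and 7.31.

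**Figure D3:**
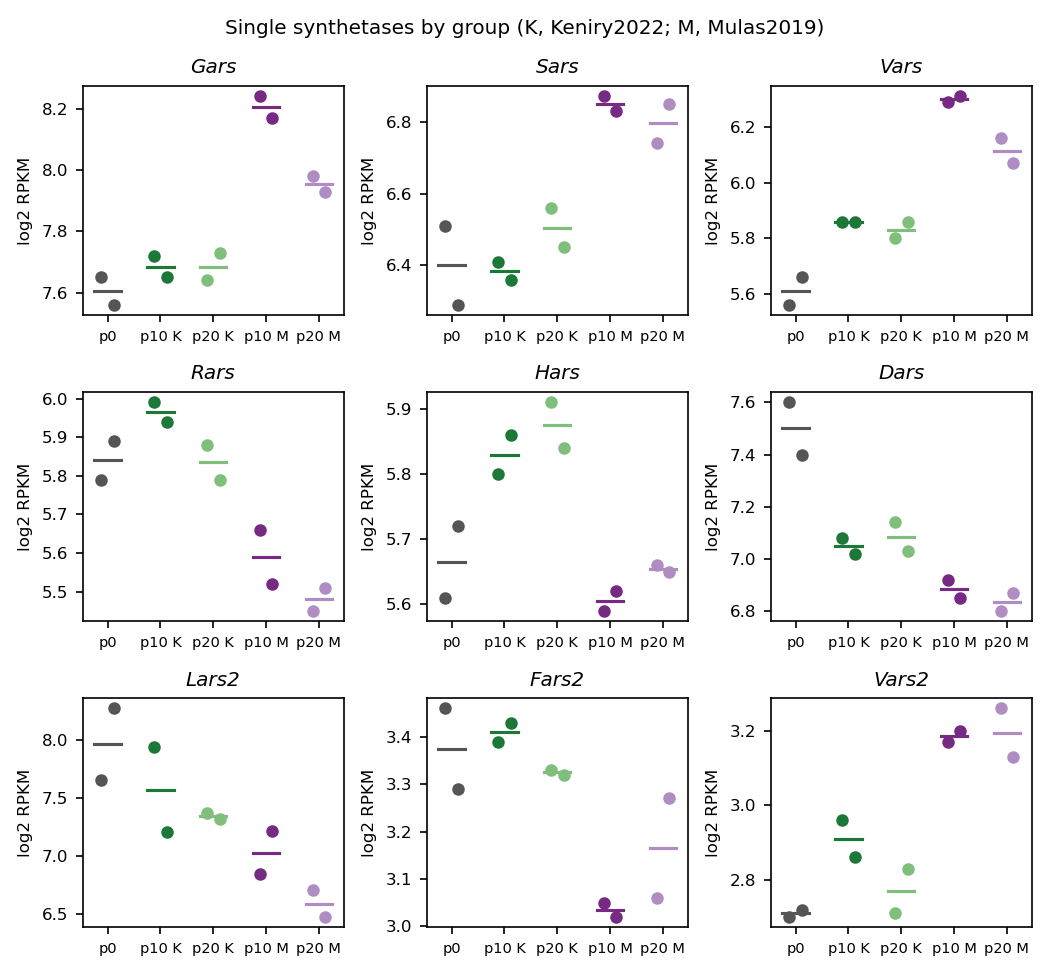
Values of 9 synthetases in log2 RPKM, 1 point per library and a bar at the mean of the 2 libraries of a group (K, Keniry2022; M, Mulas2019; the y axes differ and do not start at 0). Gars, Sars and Vars are higher in all Mulas2019 libraries, Rars, Hars and Dars are higher in all Keniry2022 libraries, and Lars2 overlaps between the methods.

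Among the mitochondrial enzymes, Vars2 (valine) was the member that was lower under Keniry2022, as was its cytosolic counterpart. Vars2 (chr17:35655634-35667592) read 2.70 and 2.72 at p0, 2.96, 2.86, 2.71 and 2.83 under Keniry2022, and 3.17, 3.20, 3.26 and 3.13 under Mulas2019. The Keniry2022 libraries reached down to the p0 level and the Mulas2019 libraries were all above them, by 27.5% on average (-0.35 ± 0.0583, adjusted p = 0.00085). After correction for length and GC content the difference was -0.16 (adjusted p = 0.0229). The remaining differences of this class were mostly in the other direction.

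Fars2 (phenylalanine) read 3.46 and 3.29 at p0, 3.39, 3.43, 3.33 and 3.32 under Keniry2022, and 3.05, 3.02, 3.06 and 3.27 under Mulas2019. No library overlapped (0.27 ± 0.06, adjusted p = 0.00434), although p20 Mulas2019 replicate 2 was nearer to the Keniry2022 values than to its own group. Rars2 (arginine) read 4.54 and 4.37 at p0, 4.40, 4.31, 4.22 and 4.13 under Keniry2022, and 4.11, 4.03, 3.97 and 4.01 under Mulas2019. Its Mulas2019 libraries were the lowest of the 10 (0.23 ± 0.0591, adjusted p = 0.00794), and correction for length and GC content ended the call (0.14, 0.0735). Cars2 (cysteine) read 3.87 and 3.49 at p0, 3.70, 3.77, 3.63 and 3.71 under Keniry2022, and 3.44, 3.46, 3.46 and 3.62 under Mulas2019 (0.20 ± 0.0519, adjusted p = 0.00838). Yars2 (tyrosine) read 4.75 and 4.06 at p0, 4.05, 4.03, 4.14 and 4.09 under Keniry2022, and 3.89, 3.79, 3.91 and 3.99 under Mulas2019 (0.18 ± 0.0493, adjusted p = 0.0109). In these 4 enzymes, of the 16 in the class, the lowest Keniry2022 library was above the highest Mulas2019 library. That share is close to the 23.1% of all features.

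Mars2 (methionine, 0.25, adjusted p = 0.0258), Sars2 (serine, 0.17, 0.028) and Aars2 (alanine, 0.12, 0.0418) also passed, with overlapping libraries. These were the calls most often lost under other settings, Aars2 in 12, Sars2 in 9 and Mars2 in 7 of 20, and with the replicate number as a block Aars2 no longer passed (adjusted p = 0.0588). Correction for length and GC content moved Mars2 to 0.09 (0.373) and Aars2 to 0.23 (0.000806). Without p10 Keniry2022 replicate 1 or 2, or without p10 Mulas2019 replicate 1, 5 mitochondrial members in place of 8 were higher. The other 7 members did not pass, with differences of 0.15 for Pars2 (proline), 0.05 for Iars2 (isoleucine), -0.03 for Ears2 (glutamate), -0.11 for Tars2 (threonine), -0.13 for Hars2 (histidine), -0.14 for Nars2 (asparagine) and -0.21 for Wars2 (tryptophan). Exons of Iars2 overlap those of Rab3gap2 on the opposite strand over 22.9% of their length, and no source used here gives the strand setting of the counting. The 13 mitochondrially encoded protein genes, whose mRNAs these enzymes serve, had 0 reads in every library and were not analysed here.

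Leucyl-tRNA synthetase 2, Lars2 (chr9:123366940-123462664), had the largest difference of all 37 members and also the widest spread. It read 7.65 and 8.27 at p0, 7.94, 7.20, 7.37 and 7.32 under Keniry2022, and 6.84, 7.21, 6.70 and 6.47 under Mulas2019. The libraries overlapped narrowly, since p10 Mulas2019 replicate 2 (7.21) was level with p10 Keniry2022 replicate 2 (7.20), and the mean was 57.4% higher under Keniry2022 (0.65 ± 0.175, adjusted p = 0.0106). In the model of 5 groups the same difference had an adjusted p of 0.0518. Lars2 alone took 38.6% to 69.3% of the reads of the 16 mitochondrial enzymes, and without it these enzymes held 530 to 570 RPM (reads scaled to the library total) in every library.

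Of all features above the filter, the one most like Lars2 over the 10 libraries was Gm15564 (chr16:35966752-35983230; Pearson r = 0.999 as a description, across libraries of 2 lines), and the next was Gm6984 (r = 0.929). Gm15564 read 7.38 and 8.11 at p0, 7.77, 6.95, 7.16 and 7.13 under Keniry2022, and 6.62, 6.96, 6.43 and 6.21 under Mulas2019. Lars2 lay 0.15 to 0.27 above it in each library. The longest annotated coding transcript of Lars2 shares an alignment of 72 bases, 71 of them identical (98.6%), with a transcript of Gm15564, at positions 3278 to 3349 of its 3894 bases. That stretch lies beyond the end of the coding sequence at position 2908, in the 3′ UTR (chr9:123462048-123462119, mm10). Whether reads of this stretch set the Lars2 level was not tested, because the table gives 1 value per gene. The comparison with Gm15564 was chosen after the Lars2 values were seen.

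**Figure D4:**
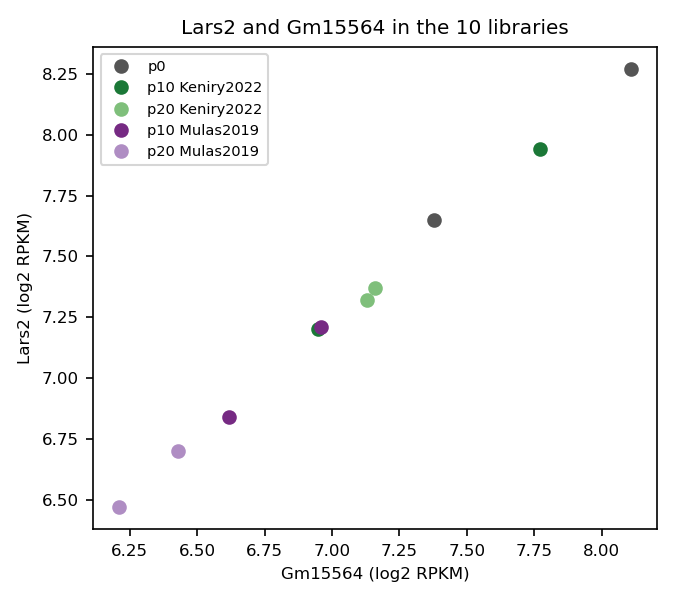
Lars2 against Gm15564 in the 10 libraries, both in log2 RPKM, coloured by group. The points follow 1 line from p20 Mulas2019 replicate 2 (6.21 and 6.47) to p0 replicate 2 (8.11 and 8.27).

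The enzymes of the 2 compartments were then set side by side by amino acid. In 13 of the 16 amino acid pairs the Keniry2022 minus Mulas2019 difference was lower for the cytosolic than for the mitochondrial transcript. In 8 of them it was negative for the cytosolic and positive for the mitochondrial one. Most cytosolic enzymes in these pairs are on the ATF4 list, and Dars, Farsb, Kars, Qars and Tarsl2 are in none, so the count overlaps with the result for that list. The cytosolic minus mitochondrial gap ran from -0.76 for leucine to -0.07 for asparagine and tryptophan and -0.01 for valine. It was positive for histidine (0.35), arginine (0.13) and threonine (0.07). Serine is an example, with -0.38 for Sars and 0.17 for Sars2, and cysteine another, with -0.30 and 0.20. Valine (-0.36 and -0.35) and arginine (0.36 and 0.23) moved in 1 direction in both compartments. For histidine the cytosolic transcript had the higher difference (0.22 for Hars and -0.13 for Hars2). The leucine gap rests on Lars2, whose values followed those of Gm15564 as given above.

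By library, the median of each set was taken relative to the mean of each gene over the 10 libraries. The ATF4 list minus the other cytosolic enzymes gave -0.16 and -0.20 at p0, -0.06, -0.18, -0.18 and -0.10 under Keniry2022, 0.39 and 0.30 at p10 under Mulas2019 and 0.16 and 0.09 at p20. All 6 libraries of p0 and Keniry2022 were below 0 and all 4 Mulas2019 libraries were above it. The cytosolic minus the mitochondrial median averaged -0.06 ± 0.0445 in the Keniry2022 libraries and 0.13 ± 0.129 in those of Mulas2019 (SD, n = 4 libraries, 2 lines at 2 passages). The 2 means differed by -0.19. By library this class difference was -0.05, -0.12, -0.07 and -0.02 under Keniry2022. Under Mulas2019 it was 0.30 and 0.15 at p10 but 0.04 and 0.01 at p20, so the methods stood furthest apart at p10. At p0 it was -0.21 and -0.08. These medians are descriptions of chosen sets and were not tested.

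**Figure D5:**
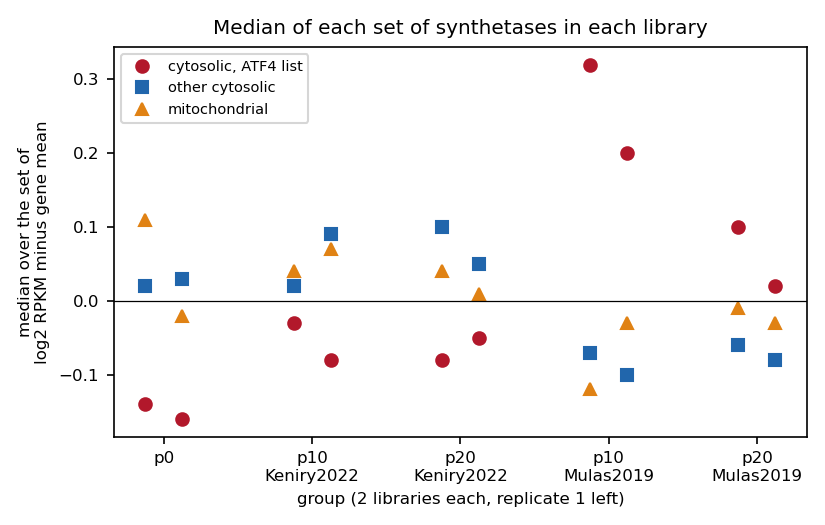
Median over each set of synthetases of log2 RPKM minus the gene mean (y axis), 1 symbol per set and library, for the 5 groups. The ATF4 list (circles) is lowest of the 3 sets in the p0 and Keniry2022 libraries and highest in the Mulas2019 libraries, with 0.32 in p10 Mulas2019 replicate 1.

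At single passages, with 2 libraries per group, fewer members passed. At p10, 7 did, 2 higher and 5 lower, against 8.53% of the 11561 features of the model of all 10 libraries (3.76% higher and 4.77% lower). Gars (-0.52, adjusted p = 0.0133), Sars (-0.47, 0.0281), Vars (-0.44, 0.0176), Wars (-0.39, 0.0351) and Cars (-0.34, 0.0466) were lower under Keniry2022, all of the ATF4 list, and Mars2 (0.45, 0.0278) and Rars (0.37, 0.0381) were higher. With the replicate number as given as a block, Cars (adjusted p = 0.067) and Rars (0.0593) no longer passed. Crossing the numbers of p20 Keniry2022 to follow the Y-linked reads, a choice made after seeing the data, gave 1 higher and 5 lower. Quantile normalisation gave 1 higher and 7 lower. At p20 none of the 37 passed by limma (background 2.15%), while 10 had an unadjusted p under 0.05 (19.4% of all features did) and voom on recovered reads called 1. The differences at p20 were -0.43 for Vars2 (adjusted p = 0.0586), 0.35 for Rars (0.0768), -0.28 for Vars (0.104) and -0.27 for Gars (0.125). The medians of the ATF4 list were -0.32 at p10 and -0.15 at p20. All 13 differences of the list were negative at p10, while at p20 10 were negative and 3 positive, the highest at 0.04. The counts at single passages depended on the p0 libraries, which share the estimate of spread: without either p0 library, 26 members passed at p10 and 17 at p20, without any single p10 library none passed at p10, and without any single p20 library 2 passed at p10.

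Matched in days of culture (p20 Keniry2022 against p10 Mulas2019), 5 members were lower under Keniry2022 and none was higher, against 6.43% of features (3.59% lower and 2.84% higher). They were Gars (-0.52, adjusted p = 0.0181), Vars (-0.47, 0.019), Wars (-0.41, 0.0389), Vars2 (-0.41, 0.0403) and Cars (-0.41, 0.0328), of which Vars2 was lost with the replicate number as a block (adjusted p = 0.0657). All 13 differences of the ATF4 list were negative (median -0.31) and all 8 of the other cytosolic enzymes were positive (median 0.19). Without a p0 library 24 members passed, and without any 1 of the Mulas2019 libraries or of the p20 Keniry2022 libraries none did. Without a p10 Keniry2022 library 1 passed.

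The starting cells were compared with each later group. These comparisons share the 2 p0 libraries, so their results are not independent of each other. Under Keniry2022 no member passed by limma at p10 or at p20 (background 0.199% in both), with 5 and 6 members at an unadjusted p under 0.05, as were 24.7% and 28.0% of all features. The differences from p0 with the smallest p were those of Dars, -0.45 at p10 (adjusted p = 0.104) and -0.41 at p20 (0.107). Without p0 replicate 2, however, 15 members passed at either passage, and without p0 replicate 1, 3 did.

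Under Mulas2019, 15 members differed from p0 at p10 (background 33.0%, with 15.7% higher and 17.3% lower), 10 higher and 5 lower. Of the 10, 9 were on the ATF4 list, led by Iars (0.80, adjusted p = 0.0192), Vars (0.69, 0.00602), Gars (0.60, 0.00756) and Nars (0.56, 0.014), and the other was Vars2 (0.48, 0.0144). The lower ones were Lars2 (-0.93, 0.0385), Dars (-0.61, 0.00919), Rars2 (-0.39, 0.0214), Fars2 (-0.34, 0.0397) and Qars (-0.22, 0.0482). With the replicate number as a block 11 remained, 9 higher and 2 lower, and Lars2 (adjusted p = 0.0505), Fars2 (0.0531), Qars (0.0651) and Lars (0.0642, a difference of 0.39) no longer passed. At p20, 13 differed (background 29.3%, with 14.7% higher and 14.6% lower). The higher ones were 6 of the ATF4 list (Iars 0.68, Vars 0.51, Sars 0.40, Gars 0.35, Nars 0.33 and Cars 0.31) and the mitochondrial Vars2 (0.49), Tars2 (0.47) and Hars2 (0.43). Lars2 (-1.37), Dars (-0.66), Rars2 (-0.47) and Rars (-0.36) were lower. The block with the numbers as given left 11 of the 13, without Hars2 (adjusted p = 0.0502) and Nars (0.063). Crossing the numbers of p20 Keniry2022 gave 12, 8 higher and 4 lower. Quantile normalisation moved the split to 15 higher and 4 lower at p10 and 13 higher and 2 lower at p20. Library weights left none in either comparison, without p0 replicate 2 the counts were 25 and 24, and without a library of the Mulas2019 group compared they were 0 or 1 at p10 and 0 at p20. At p20 the count was also 5 without either p10 Keniry2022 library and 8 without p20 Keniry2022 replicate 2 or either p10 Mulas2019 library.

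Between p10 and p20 no member passed in either method, nor did any of the features tested (0.0%). Under Keniry2022 none of the 37 reached an unadjusted p under 0.05 (2.5% of all features did), and the differences ran from -0.23 to 0.25. Under Mulas2019 4 did, against 6.68% of all features, namely Gars (-0.25, adjusted p = 0.556), Mars2 (0.27, 0.58), Vars (-0.19, 0.699) and Wars (-0.24, 0.627), and library weights called 4. All 13 differences of the ATF4 list were negative there (median -0.16), while the other cytosolic enzymes had a median of -0.02. Whether the difference between the methods itself changed from p10 to p20 was tested as an interaction, which passed for no member (0.0% of features), with 1 at an unadjusted p under 0.05, Mars2, against 3.5% of all features.

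Other genes of tRNA charging and of the amino acid response were read from lists, whose counts are to be read against the 25.9% of all features that were higher and the 25.5% that were lower. Of the 4 genes of trans-editing and tRNA export, 2 were lower under Keniry2022, Xpot, the exporter of tRNA from the nucleus (-0.21, adjusted p = 0.0172), and Dtd1, which removes D-amino acids from tRNA (-0.47, 0.0361), and Prorsd1 was higher (0.23, 0.0229). In the mitochondrial amidation and formylation list, 2 of the 3 genes tested were higher, Qrsl1 and Gatc, subunits of the enzyme that turns the glutamate charged by Ears2 into glutamine (both 0.16), and Mtfmt, the formyltransferase of the initiator tRNA, did not pass (0.02). Of the 9 mitochondrial translation factors 1 was higher (Mrrf, which recycles ribosomes, 0.23, 0.0236), with a list median of 0.06, and Gfm2 (-0.12) and Mtif2 (0.13) did not pass. Of the mitochondrial ribosomal proteins, 56 of 75 were higher and 0 lower (median 0.26), led by Mrpl18 (0.42), Mrpl11 (0.43) and Mrpl46 (0.43).

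The amino acid response genes were for the most part lower under Keniry2022. Of 29 tested, 25 were lower and 1 was higher, against 25.5% and 25.9% of all features (median -0.52 against -0.003). The 3 with the smallest p were Atf5, a transcription factor downstream of ATF4 (3.94 ± 0.0805 under Keniry2022 and 4.99 ± 0.163 under Mulas2019, SD, n = 4 each, limma adjusted p = 3.28e-05), Slc1a4, a transporter of neutral amino acids (-0.76), and Vldlr, a lipoprotein receptor (-1.54). The exception was Slc7a3, a transporter of cationic amino acids (0.56). Atf4 itself differed by -0.15 (adjusted p = 0.0471). Of the eIF2 alpha kinases and phosphatase partners, 2 of 6 were lower, the phosphatase subunits Ppp1r15b (-0.23) and Ppp1r15a (-0.42), and no kinase passed, with Eif2ak2 at -0.15. Against p0, 20 of the 29 amino acid response genes were higher and 2 lower at p10 under Mulas2019 (15.7% and 17.3% of all features), and 15 higher and 2 lower at p20 (14.7% and 14.6%).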

How the data were processed

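RNA-seq libraries of 10 cultures were used. The study gives trimming of its single-end reads, alignment to mm10 with HISAT2 and SeqMonk quantification. The submitters' notes list TopHat2 2.0.12 with bcl2fastq, so the aligner is uncertain. Annotation release, multi-mapping reads and strand setting were not given in the sources used here. A single table of log2 values, named as log CPM, is what the authors deposited. These are log2 RPKM, since the value of a feature with 0 reads, entered as 0.9 reads, depends on its length. From these floors the totals were worked out. Lengths came from the floor for 10316 features and from a search for whole reads (tolerance 0.1 reads) for 15648, so whole reads are no check of the recovery. The floor shrinks differences of weakly expressed features.

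Tests used limma 3.58.1 in R 4.3.3 (lmFit, eBayes with trend, two-sided) on the deposited log2 values, with Benjamini-Hochberg adjustment over all features kept by the filter (log2 above 0 in 50% of libraries or more), and a threshold of 0.05. The methods were compared on 8 libraries with passages pooled, as in the study, and other comparisons in a model of 5 groups on 10 libraries. P-values of the pooled comparison measure the spread between 2 lines and their passages. Those of the model of 5 groups measure the spread between the 2 libraries within a group, shared over all groups with p0 included. On simulated data the pooled fit recovered 85% of changes of 0.5 log2 and 95% of changes of 1 (11 unchanged features called, of 11525), and the comparison at p10 18% and 64% (2 called, of 11477). The simulation gave every library independent noise and changed a small part of the features. In the data the lines recur and 51.5% of features passed in the pooled comparison, so these shares need not hold there. Replicate numbers were read as marking the line, but by the Y-linked reads they run crossed in p20 Keniry2022. By those reads, the block with the numbers as given pairs these 2 libraries with the other line. Deviations of same-numbered libraries correlated at 0.171 to 0.63 between groups other than p20 Keniry2022, and at -0.118 to -0.698 with it.

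The members and all lists were chosen with earlier results of these data known, so no list was tested. Full values are given for the 5 members of each class with the smallest p in the pooled comparison, the largest rise in each class, calls against the majority of a class, Gars, Kars, Eprs and Tarsl2. From each other list the 3 genes with the smallest p are named, most of them with the difference between the methods alone. Gene models were GENCODE vM21, promoter windows RefSeq GRCm38.p6, and sequences were aligned with blastn 2.17.0. Alternatives were other filters, a pseudocount of 1, quantile normalisation, median centring, library weights, voom, a replicate block, correction for length and GC content, and leaving out each library.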

Additional observations from a re-analysis of the deposited data

Results flagged for a closer look

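Among the 4 libraries of a method, a value was marked where its gap to the nearest other library took up more of the range than Dixon's 95% critical value allows. Of 74 groups of 4 tested, 5 held such a value, and chance marks about 1 in 20. Cars2 (3.62, next 3.46) and Fars2 (3.27, next 3.06) were high in p20 Mulas2019 replicate 2, where both were closer to the Keniry2022 libraries. Iars was high in p20 Keniry2022 replicate 2 (6.25, next 6.11). In p20 Keniry2022 replicate 1, Tars2 was high (3.73, next 3.65) and Vars was low (5.80, next 5.86).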

How the results depend on the processing

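In the pooled comparison, 9 of the 24 members that passed did so under all 20 alternatives. The count of 24 fell to 12 in the model of 5 groups, and that of the other cytosolic enzymes from 6 to 2 there and under quantile normalisation. The 9 lower members of the ATF4 list became 6 in the model of 5 groups and 13 under quantile normalisation. The mitochondrial count of 8 was 5 with no filter and with voom, 3 in the model of 5 groups, and 5 to 8 without single libraries. Ears2 (-0.03) turned to 0.05 under quantile normalisation, 0.08 after correction for length and GC content and 0.01 without p20 Keniry2022 replicate 1 (-0.06 to 0.01 over single libraries left out). The class difference of -0.19 moved to -0.32 under quantile normalisation. With library weights, 27 members passed at p10, 16 at p20, 23 when matched in days, 4 between the passages of Mulas2019, and 0 for both Mulas2019 groups against p0. Quantile normalisation gave 8 matched in days and 1 at p20, voom 1 at p20, and correction for length and GC content 2 at p20 and 1 and 2 for Keniry2022 against p0. Without single libraries the counts ran from 0 to 26 at p10, 0 to 17 at p20, 0 to 24 matched in days, 0 to 15 for Keniry2022 against p0 at either passage, 0 to 25 and 0 to 24 for Mulas2019 against p0, and 0 to 2 between the passages of Mulas2019. The replicate number as a block gave 23 in the pooled comparison (Aars2 lost) and 5 at p10, and with the numbers of p20 Keniry2022 crossed, an alternative chosen after seeing the data, 23 and 6. The block gave 4 matched in days and 11 for either Mulas2019 group against p0. With the crossed numbers these counts were 4 matched in days, 11 for p10 Mulas2019 and 12 for p20 Mulas2019. Causes of these changes were not tested.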
